A study of Homo sapiens with 24 samples.

Results

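Calcitriol, the hormonal form of vitamin D, was compared with no treatment in 2 human B-lymphoblastoid lines, GM10855 and GM10861, by whole-transcript Affymetrix arrays. The comparison takes 12 of the 24 arrays in the series, selected by agent: 3 arrays of each line after 36 h with calcitriol and 3 arrays of the same line untreated at 0 h. Each line was compared with itself and the 2 line changes were averaged. The other 12 arrays hold the same lines after 36 h with estrogen or with calcitriol and estrogen together, and served for time-matched values. All groups share one background: both lines were made from B cells of a single donor each, transformed with Epstein-Barr virus, so a difference between the lines is a difference between 2 cultures. No untreated culture was sampled at 36 h, and every change against untreated cells therefore holds the hormone and 36 h of culture together. The sources used here name no dose, vehicle, culture conditions or estrogen compound. Nor do they state that arrays of 1 group come from different cultures, so each p-value measures only the array-to-array spread, which may be technical.

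Calcitriol enters the cell and binds the vitamin D receptor VDR, a nuclear receptor that pairs with a retinoid X receptor (RXRA, RXRB or RXRG) on DNA and recruits coactivators. CYP27B1 makes calcitriol from its precursor and CYP24A1 inactivates it, and the gene for CYP24A1 is itself a classical target of the receptor, which closes a feedback loop. In white blood cells the receptor is also known for driving CAMP, the gene of the antimicrobial peptide cathelicidin. B cells express the receptor when activated, and B-lymphoblastoid lines resemble activated B cells.

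Values are log2 RMA signals of a probe set, the group of probes that reads 1 transcript, so a difference of 1 is a 2-fold change and differences are given on that scale. The medians of the 12 arrays lay between 5.38 and 5.50, and within a group the arrays correlated over probe sets at 0.990 to 0.995. The label of the cells was checked against marker genes. All 8 measured B cell markers had untreated means of at least 6.84 in GM10855 and 6.45 in GM10861, with MS4A1, which encodes a B cell surface channel, at 10.49 and 10.98. The T cell receptor chains CD3D, CD3E and CD3G lay between 3.75 and 4.72 in untreated GM10855, and the mean over 9 T cell markers ran from 4.91 to 5.09 on untreated arrays and from 4.90 to 5.05 on calcitriol arrays. In that list LCK, at 8.17 and 7.94 in the untreated lines, was the highest. None of the 47 measured markers of T cells, NK cells, monocytes, fibroblasts, erythroid and epithelial cells was called in calcitriol against untreated. Since only 0.679% of all probe sets were called, no call among 47 lies near that share and says little of these markers.

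A probe set was called when its limma p-value, adjusted by the Benjamini-Hochberg method over 21214 probe sets, was under 0.05. Calcitriol against untreated gave 144 calls, 0.679% of probe sets. Higher calls made up 131 of them (0.618%) and lower calls 13 (0.0613%), covering 120 and 13 genes. Most changes were modest: the median was 0.37 among higher calls and -0.34 among lower calls, 30 higher calls reached 0.5 and 5 reached 1. The arrays of the 2 sides did not overlap in either line for 105 of the 131 higher calls and 11 of the 13 lower calls, against 0.886% and 0.415% of all probe sets that were so separated in each direction. The calls were made on these same arrays, so their separation is no independent evidence. A change in a bulk culture can come from fewer cells of a kind or from less RNA per cell, and these cannot be told apart here.

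The first group of genes were those of vitamin D handling itself. Of 16 measured genes for vitamin D metabolism, the receptor and its cofactors, 2 rose and none fell, and the median change was -0.028 against -0.0014 over all genes. CYP24A1 (Entrez 1591) read 3.10, 3.24 and 3.57 on the untreated and 4.90, 4.998 and 5.02 on the calcitriol arrays of GM10855. In GM10861 it read 3.34, 3.83 and 3.90 untreated and 6.11, 6.21 and 6.08 with calcitriol. The gene was thus low in all 6 untreated arrays and higher in all 6 treated ones, with no overlap in either line. It rose by 1.67 ± 0.16 (SE, n = 3) in GM10855 and by 2.44 ± 0.16 in GM10861 (limma, adjusted p = 1.08e-06 and 2e-09), and the difference of 0.78 between the lines did not pass (adjusted p = 0.524). Because the untreated signals lay near the floor of the arrays, where RMA compresses changes, these folds may be too small.

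VDR (Entrez 7421) read 5.08, 5.05 and 4.81 untreated and 5.38, 5.50 and 5.60 with calcitriol in GM10855, and 4.97, 4.85 and 4.93 against 5.35, 5.25 and 5.28 in GM10861. The highest untreated array of each line lay below the lowest calcitriol array. VDR rose 1.36-fold on average (0.44 ± 0.062, limma adjusted p = 0.0002), and of the lines taken alone the change passed in GM10855 (0.51, adjusted p = 0.00262) but not in GM10861 (0.38, adjusted p = 0.154). The partner receptors gave -0.12 for RXRA, -0.084 for RXRB and 0.024 for RXRG, and the 95% interval of the RXRA change reached 0.14 on either side. CYP27B1 gave 0.058, within 0.18 on either side, and CYP2R1, which starts the activation of vitamin D in the liver, gave -0.020. The coactivator genes MED1, NCOA1 and NCOA2 gave -0.11, -0.10 and 0.080. Apart from the receptor and CYP24A1, no gene of the list passed.

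CAMP (Entrez 820), on chromosome 3, had the largest change of all probe sets. Its arrays read 5.69, 6.27 and 5.99 untreated and 8.63, 8.47 and 8.72 with calcitriol in GM10855. In GM10861 they read 5.71, 5.96 and 5.55 and 8.14, 7.86 and 8.11. The lowest treated array of either line stood far above the highest untreated one, and the spread within groups was small beside the gap. The rise was 5.50-fold (limma, 2.46 ± 0.10, adjusted p = 1.21e-13).

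The next measured gene downstream of CAMP is ZNF589, which encodes a zinc finger protein. ZNF589 (Entrez 51385) read 6.86, 6.35 and 6.59 untreated and 7.90, 7.92 and 7.93 with calcitriol in GM10855, and 7.03, 6.92 and 6.95 against 7.41, 7.47 and 7.65 in GM10861. The arrays were apart in both lines, by a wide gap in GM10855 and a narrower one in GM10861. It rose by 1.32 in GM10855 (limma, adjusted p = 4.36e-07), while its 0.55 in GM10861 did not pass (adjusted p = 0.108). The neighbour on the other side of CAMP, the cell cycle phosphatase gene CDC25A, gave 0.025 (adjusted p = 0.993), and NME6 beyond ZNF589 gave -0.062 (adjusted p = 0.979). The rise was thus measured in this adjoining pair and not in the genes on either side of it.

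The sequences just upstream of CAMP, of ZNF589 and of CD38, which is described further on, are shown because the genes are among the 10 largest rises and 2 of them adjoin; ZNF589 and CD38 were chosen after their values were seen. They are 250 bases each before the RefSeq gene start, on the plus strand of GRCh38.p14, at chr3:48223245-48223494, chr3:48240854-48241103 and chr4:15778078-15778327. The table of promoters held no entry for CYP24A1. Capitals mark single hexamers of the kind nuclear receptors bind, on either strand: a purine, G, G or T, T, C or G, and A.
CAMP: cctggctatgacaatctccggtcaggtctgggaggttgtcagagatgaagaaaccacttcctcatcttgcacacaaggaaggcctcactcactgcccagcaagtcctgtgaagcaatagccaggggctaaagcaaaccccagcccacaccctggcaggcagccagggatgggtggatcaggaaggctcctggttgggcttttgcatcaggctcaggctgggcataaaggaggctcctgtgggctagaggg
ZNF589: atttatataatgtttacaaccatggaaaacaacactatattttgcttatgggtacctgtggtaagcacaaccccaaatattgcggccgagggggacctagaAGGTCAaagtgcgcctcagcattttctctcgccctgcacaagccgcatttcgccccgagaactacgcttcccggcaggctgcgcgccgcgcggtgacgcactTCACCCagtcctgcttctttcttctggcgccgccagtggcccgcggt
CD38: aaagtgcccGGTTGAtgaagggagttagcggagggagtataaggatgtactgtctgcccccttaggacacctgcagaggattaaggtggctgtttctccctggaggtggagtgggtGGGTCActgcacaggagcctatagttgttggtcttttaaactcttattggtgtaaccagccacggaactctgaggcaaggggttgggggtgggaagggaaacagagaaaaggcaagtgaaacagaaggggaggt
The vitamin D receptor is known to bind DR3, a pair of such hexamers in the same direction with 3 bases between them. None of these 3 windows held DR3, and the CAMP window held no hexamer, while the ZNF589 and CD38 windows held 2 each. DR3 was found, over both strands of windows reaching 50 bases past the start, in 82 of 27305 promoters (0.300%), in 0 of the 93 promoters found for the 120 genes called higher and in 0 of the 9 found for the 13 called lower. At least 1 hexamer was found in 55.6% of all promoters, 46.2% of those called higher and 66.7% of those called lower. A window of this length says nothing of sites farther away.

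**Figure D1:**
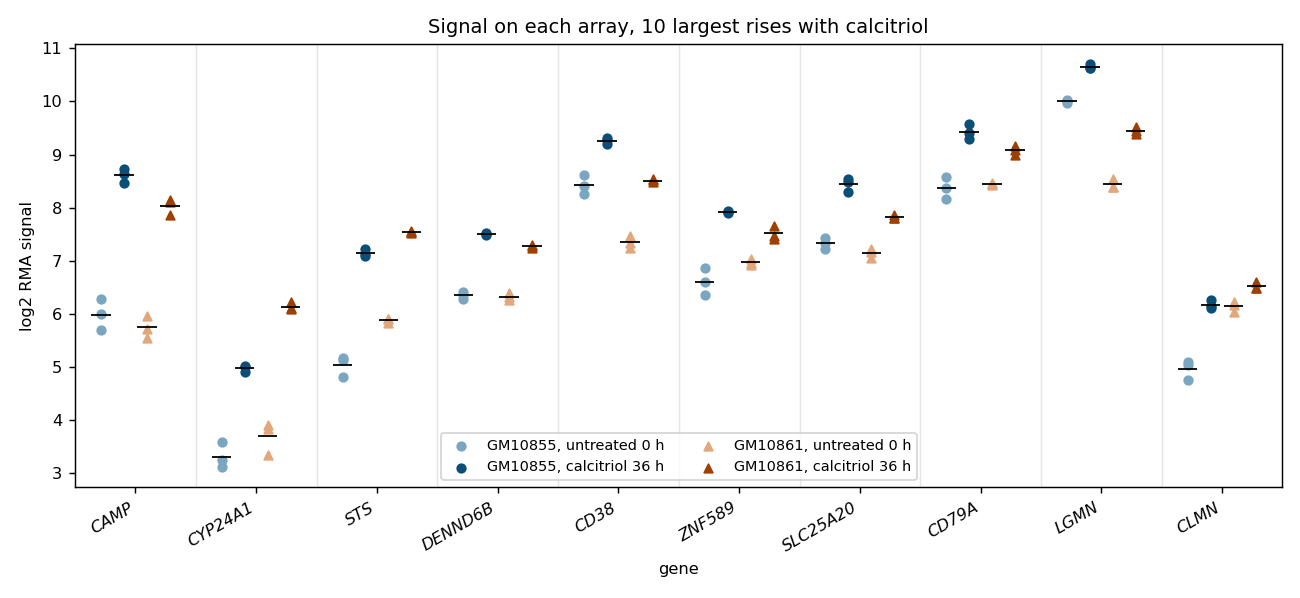
Log2 RMA signal on each of the 12 arrays for the 10 genes with the largest rises, in GM10855 (circles) and GM10861 (triangles), untreated at 0 h (light) and after 36 h with calcitriol (dark); black bars are group means of 3 arrays. In every gene the dark points lie above the light points of the same line, from CAMP with a mean change of 2.46 to CLMN with 0.80.

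The third largest rise was that of STS (Entrez 412), the enzyme that strips sulfate from steroid sulfates. Of 18 measured sulfatases and steroid enzymes 3 rose and none fell, STS, SULF2 and CYP19A1, and the median of the list was 0.069. STS read 5.16, 5.12 and 4.80 untreated and 7.09, 7.21 and 7.13 with calcitriol in GM10855. In GM10861 it read 5.89, 5.83 and 5.90 and 7.54, 7.55 and 7.52. The spread within each group was small beside the shift, and STS had the smallest adjusted p of all probe sets (limma, 3.70-fold, 1.89 ± 0.061, adjusted p = 8.18e-16). SULF2, which trims sulfate from heparan sulfate outside the cell, rose by 0.77 ± 0.084 (limma, adjusted p = 4.83e-06), and by close amounts in the lines (0.73 and 0.80). Its relative SULF1 gave 0.16 (adjusted p = 0.721), and the lysosomal sulfatases ARSA and ARSB gave 0.072 and -0.050. The modifying factors that sulfatases need, SUMF1 and SUMF2, gave -0.13 and 0.11.

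CYP19A1, the aromatase that turns androgens into estrogens, read 3.57, 3.54 and 3.56 untreated and 4.26, 4.20 and 4.28 with calcitriol in GM10855, all apart, and 3.29, 3.28 and 3.16 against 3.28, 3.61 and 3.53 in GM10861, where the arrays overlapped. The average rise of 0.46 ± 0.083 passed (limma, adjusted p = 0.00436), with 0.69 in GM10855 and 0.23 in GM10861. In GM10861 it did not pass when taken alone (adjusted p = 0.874). All 6 untreated signals were dim, under the lowest of the arrays' lower quartiles (3.97), so the size of this rise is poorly measured. The sulfotransferases that add sulfate to steroids, SULT2A1 and SULT2B1, gave -0.095 and 0.088. On the X chromosome the gene before STS, the phosphatase gene PUDP, rose as well, by 0.37 ± 0.084 (limma, adjusted p = 0.0373), and PNPLA4 on the other side gave 0.11 (adjusted p = 0.879).

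CD38 (Entrez 952), a surface enzyme that consumes NAD and is dense on plasma cells, read 8.61, 8.26 and 8.40 untreated and 9.27, 9.32 and 9.20 with calcitriol in GM10855. In GM10861 it read 7.46, 7.24 and 7.33 and 8.52, 8.47 and 8.53. GM10855 began higher than GM10861, and in each line all 3 treated arrays lay above all 3 untreated ones. CD38 rose 2.003-fold on average (limma, 1.002 ± 0.062, adjusted p = 2.58e-10). Of 18 measured genes of NAD metabolism it was the 1 that passed. BST1, its paralog and neighbour on chromosome 4, gave 0.030, NAMPT, the enzyme that recycles nicotinamide, gave -0.076, and NT5E gave -0.23 (adjusted p = 0.625).

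Genes of the B cell itself followed. CD79A (Entrez 973), which encodes the Ig-alpha signalling subunit of the B cell receptor, read 8.57, 8.16 and 8.36 untreated and 9.41, 9.30 and 9.57 with calcitriol in GM10855, and 8.47, 8.42 and 8.44 against 9.16, 9.09 and 8.998 in GM10861. The sides were apart in both lines, and the gene rose by 1.06 and 0.64 in the lines (limma, adjusted p = 8.52e-08 and 0.000421). Its partner chain CD79B gave 0.078 (adjusted p = 0.933). CR2, the complement receptor that is also the entry receptor of Epstein-Barr virus, rose by 0.41 ± 0.062 (limma, adjusted p = 0.000551). Its change was 0.57 in GM10855 and 0.25 in GM10861, where it did not pass alone (limma, adjusted p = 0.669). CD79A and CR2 were the 2 of 17 measured genes of the B cell receptor and its proximal signalling that passed, and the kinases BTK, SYK and BLK gave -0.0069, 0.011 and -0.00037. Neighbours of CD79A did not pass: RPS19 gave 0.074 and ARHGEF1 0.20 (adjusted p = 0.14).

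Of 15 measured B cell transcription factors 3 rose, by small amounts: PAX5, the factor that keeps B cell identity (0.26), IRF8 (0.29) and IKZF1 (0.30). Their limma adjusted p-values were 0.0199, 0.0143 and 0.0423, near the threshold. When each of the 12 arrays was dropped in turn, PAX5 missed the threshold 8 times and IKZF1 10 times (largest adjusted p = 0.0816 and 0.147). IRF8 missed it when GM10855 untreated array 3 or GM10855 calcitriol array 1 was dropped (largest adjusted p = 0.0566). BCL6, SPIB and BACH2 gave 0.21, 0.0073 and 0.083 without passing. The mean over the 8 measured B cell markers, which include CD79A, PAX5 and CR2, ran from 7.94 to 8.35 on untreated arrays and from 8.38 to 8.502 on calcitriol arrays, and its part in these results was not tested.

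Of 15 measured plasma cell genes 3 rose and none fell, with a list median of 0.15: CD38, TNFRSF17 and TENT5C. At matched time the list median was 0.042 in calcitriol added to estrogen and 0.11 in calcitriol against estrogen. TNFRSF17, which encodes the survival receptor BCMA, read 9.59, 9.51 and 9.61 untreated and 10.23, 10.21 and 10.25 with calcitriol in GM10855, and 9.05, 9.08 and 9.05 against 9.71, 9.75 and 9.74 in GM10861. The arrays of each group lay close together, and the rises in the lines, 0.66 and 0.67, were nearly the same size (limma, average 0.67 ± 0.051, adjusted p = 8.18e-09). TENT5C, a poly(A) polymerase that stabilises transcripts of secreted proteins, rose by 0.73 ± 0.055 (limma, adjusted p = 6.43e-09). The factors that direct plasma cell formation did not pass: PRDM1 gave 0.15, XBP1 0.020 and IRF4 0.062, with JCHAIN, the joining chain of secreted antibody, at -0.069.

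Among 23 measured TNF receptors and ligands 3 rose and none fell. Besides TNFRSF17 these were TNFSF4, the ligand OX40L, with 0.51 ± 0.065 (limma, adjusted p = 5.48e-05), and LTA, lymphotoxin alpha, with 0.40 ± 0.071 (adjusted p = 0.00348). Neither TNFSF4 nor LTA passed in GM10861 taken alone (0.37 and 0.35, limma adjusted p = 0.232 and 0.443). LTA was read by 3 probe sets of which the remaining pair missed the threshold with 0.30 and 0.26 (adjusted p = 0.0805 and 0.126). The paralogs of BCMA on B cells, TNFRSF13B and TNFRSF13C, gave 0.00069 and 0.040. TNF gave 0.20 (adjusted p = 0.102).

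Of 16 measured lysosomal proteases and genes of class II presentation 2 rose. LGMN (Entrez 5641), the asparaginyl endopeptidase legumain, read 10.01, 9.97 and 10.02 untreated and 10.64, 10.62 and 10.70 with calcitriol in GM10855, and 8.54, 8.38 and 8.39 against 9.52, 9.39 and 9.44 in GM10861. GM10861 began more than 1 below GM10855 and had the larger rise, 1.01 against 0.65, a difference that did not pass (0.36, limma adjusted p = 0.581). CTSZ, a lysosomal carboxypeptidase, rose by 0.71 ± 0.071 (limma, adjusted p = 8.91e-07). The other cathepsins did not pass, with 0.24 for CTSB (adjusted p = 0.0618), 0.085 for CTSD and 0.10 for CTSS. CIITA, which switches on class II genes, gave 0.0011, and the list median was 0.090.

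Of 21 measured genes of the carnitine shuttle and fatty acid oxidation 1 rose and none fell, and the list median was -0.005. That gene, SLC25A20 (Entrez 788), encodes the carnitine-acylcarnitine carrier of mitochondria and read 7.34, 7.22 and 7.43 untreated and 8.49, 8.30 and 8.54 with calcitriol in GM10855, and 7.16, 7.22 and 7.05 against 7.80, 7.81 and 7.86 in GM10861. It rose 1.86-fold (limma, 0.90 ± 0.059, adjusted p = 8.14e-10). The carnitine transferases CPT1A and CPT2 gave 0.14 and 0.027, and the oxidation enzymes ACADM and HADHA -0.0092 and -0.063. From outside this list, ACSL1, which charges fatty acids with coenzyme A, rose by 0.63 ± 0.064, and ABCD2, a peroxisomal carrier of very long fatty acids, by 0.54 ± 0.082 (limma, adjusted p = 1.19e-06 and 0.000573). Both passed in GM10855 taken alone (0.95 and 0.64) and neither in GM10861 (0.32 and 0.43, limma adjusted p = 0.398 and 0.308). G0S2, which blocks the triglyceride lipase ATGL, rose by 0.53 ± 0.070 (limma, adjusted p = 8.57e-05), while PNPLA2, the gene of that lipase, gave 0.029.

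Of 17 measured serine and one-carbon genes 2 rose: SERINC2 (0.65 ± 0.068), named for a role in carrying serine into membranes, and PHGDH (0.40 ± 0.056), the first enzyme of serine synthesis (limma, adjusted p = 2.72e-06 and 0.000178). A second SERINC2 probe set gave 0.14 and did not pass (adjusted p = 0.878). The next enzymes after PHGDH, PSAT1 and PSPH, gave 0.014 and -0.050, and SERINC1, SERINC3 and SERINC5 lay between -0.073 and 0.065. DDIT4, an inhibitor of the growth kinase complex mTORC1, rose by 0.63 ± 0.077 (limma, adjusted p = 2.9e-05) and was the 1 of 16 mTORC1 regulators that passed, with SESN1, SESN2 and SESN3 at -0.064, 0.018 and -0.19.

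Most genes known as targets of the receptor in other cells did not pass here. Of 34 measured 6 rose and none fell: CAMP, CYP24A1, G0S2, CLMN, SERPINB1, an inhibitor of neutrophil proteases (0.50, adjusted p = 0.0019 in limma), and GADD45A, a stress gene (0.32, adjusted p = 0.0199). With 1 array dropped at a time, GADD45A missed the threshold 5 times in 12 (largest adjusted p = 0.0766). The intestinal calcium genes TRPV6 and S100G gave -0.003 and 0.030, the bone genes SPP1 and TNFSF11 0.049 and 0.024, and the monocyte genes CD14 and THBD -0.043 and 0.069. CDKN1A, the cell cycle inhibitor p21, gave 0.032 (adjusted p = 0.992). The list median was 0.050, and since the list was drawn up with earlier results of these data known, its count is no independent evidence.

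DENND6B, a gene with a DENN domain of the kind that activates Rab GTPases, was the fourth largest rise. It read 6.27, 6.41 and 6.35 untreated and 7.50, 7.49 and 7.51 with calcitriol in GM10855, and 6.32, 6.38 and 6.26 against 7.30, 7.28 and 7.23 in GM10861 (limma, 1.05 ± 0.052, adjusted p = 2.93e-12). Its arrays were apart in both lines by far more than the spread within groups. The gene before it on chromosome 22, the plexin gene PLXNB2, rose by 0.28 ± 0.062 (limma, adjusted p = 0.034), with 0.41 in GM10855 and 0.14 in GM10861, while PPP6R2 after it gave 0.019. Over the 16902 genes that could be placed in order along the chromosomes, 4 of 16878 neighbouring pairs held 2 called genes: PLXNB2 with DENND6B, CAMP with ZNF589, PUDP with STS, and CD200 with BTLA on chromosome 3. CD200 and BTLA, a surface ligand and a receptor that restrain immune cells, rose by 0.33 and 0.34 (limma, adjusted p = 0.00491 and 0.000669). Of the 20 genes flanking the 10 largest rises 4 were called, where 0.775% of all placed genes were, but 2 of the 4 are CAMP and ZNF589, which flank each other and are themselves among the 10 largest rises. The other two are PUDP and PLXNB2, and the calls of both failed for 9 of the 12 arrays dropped (limma, largest adjusted p = 0.135 and 0.143). Whether called genes adjoin more often than their share gives was not tested.

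The other rises among the 40 largest ran from 0.44 to 0.70. ITM2C, an integral membrane protein, rose by 0.70 ± 0.051, and SPATA13 by 0.69 ± 0.056 (limma, adjusted p = 4.82e-09 and 2.67e-08). TRIM31, a ubiquitin ligase read by 3 probe sets, rose by 0.65, 0.60 and 0.57 in them (limma, adjusted p = 0.00468, 0.00838 and 0.0055). Whether these probe sets share probes was not checked, so their agreement is no independent evidence. In the first of them GM10855 untreated array 2, at 5.18, stood just under the lowest treated array of that line, at 5.21. Regulators of signalling and RNA in this range were PPP1R2, an inhibitor of protein phosphatase 1 (0.64), MBNL2, a splicing factor (0.61), the kinases MAPKAPK2 (0.52) and HIPK2 (0.51), the phosphatase PTP4A1 (0.44) and the exchange factor ARHGEF28 (0.49). Transporters and surface proteins were the inositol carrier SLC5A3 (0.51), SLC37A2 (0.47), LRP12 (0.46) and the interleukin receptor chain IL17RB (0.44). VPS37B of the ESCRT sorting complex rose by 0.47, CDCA7L by 0.45 on average and the glycosyltransferase GALNT5 by 0.44. For CDCA7L the change was 0.82 in GM10855 and 0.075 in GM10861, where the arrays overlapped and the change did not pass (limma, adjusted p = 0.964). PPP1R2, MAPKAPK2, HIPK2, PTP4A1, SLC5A3, LRP12 and IL17RB also passed in GM10855 alone and not in GM10861 (limma, adjusted p from 0.0804 to 0.768). TRIM31, VPS37B, SLC37A2 and GALNT5 passed in neither line taken alone (limma, smallest adjusted p = 0.0665). With 1 array dropped at a time, GALNT5 missed the threshold 8 times in 12 (limma, largest adjusted p = 0.0878). SLC37A2 missed it when untreated or calcitriol array 3 of GM10855 or untreated array 3 of GM10861 was dropped (largest adjusted p = 0.0566).

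Chemokine receptors moved in both directions. Of 14 measured 2 rose, CCR10 (0.30) and CXCR4 (0.38), and 1 fell, CCR2 (-0.44; limma adjusted p = 0.0208, 0.0209 and 0.0131). CCR10 is the receptor that draws antibody-secreting cells to skin and mucosa, CXCR4 guides B cells to bone marrow, and CCR2 responds to monocyte chemoattractants. CXCR4 had untreated means of 8.97 in GM10861 and 5.77 in GM10855, and its change was 0.61 in GM10855 and 0.15 in GM10861. CCR10 and CXCR4 each missed the threshold 6 times in 12 when 1 array was dropped (largest adjusted p = 0.0772 and 0.0906). CCR7 and CXCR3 gave 0.24 and 0.26 without passing. Of 14 chemokines CCL22 was the 1 that rose (0.44, limma adjusted p = 0.0239), a call that failed for 7 of the 12 arrays dropped (largest adjusted p = 0.0994). CCL22 attracts regulatory T cells, and CCL17, its neighbour in function, gave 0.032.

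Falls were fewer and smaller. CCR2 read 4.48, 4.26 and 4.69 untreated and 4.05, 3.999 and 4.17 with calcitriol in GM10855, and 4.43, 4.49 and 4.53 against 3.99, 4.05 and 3.96 in GM10861. The sides were apart in both lines, though the signals were low. Without untreated array 3 of GM10855 the CCR2 call was lost (limma, adjusted p = 0.0538), and the other probe set of the gene, at -0.45, was not called (adjusted p = 0.198).

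HGF (Entrez 3082), hepatocyte growth factor, had the largest fall among the called genes. It read 6.36, 6.04 and 5.71 untreated and 5.67, 5.47 and 5.42 with calcitriol in GM10855, and 4.65, 4.61 and 4.47 against 3.96, 3.87 and 4.25 in GM10861. GM10855 untreated arrays were the most spread and the lowest of them lay just above the highest treated one. In GM10861 every array lay under the lower quartile of mean signals over the probe sets tested (4.67). The size of the fall in that line is therefore poorly measured. HGF fell by -0.53 ± 0.097 on average (limma, adjusted p = 0.00483), with -0.52 and -0.55 in the lines, neither past the threshold when a line was taken alone. Its receptor MET gave 0.019 and the activating protease gene HGFAC 0.20, and HGF was the 1 of 9 measured genes of this system that passed.

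ANXA1, an annexin that restrains inflammation, read 8.90, 8.94 and 8.75 untreated and 8.64, 8.56 and 8.71 with calcitriol in GM10855, and 7.39, 7.35 and 7.53 against 6.80, 6.81 and 7.09 in GM10861. It fell by -0.38 ± 0.079 (limma, adjusted p = 0.0199), the 1 of 11 measured annexins and partners that passed. Its call failed for 5 of the 12 arrays dropped (largest adjusted p = 0.0761). ANXA2 and ANXA5 gave -0.084 and -0.074. Among 29 measured cytokines and cytokine receptors none rose and 2 fell. IL21, a T cell cytokine, read 3.18, 2.74 and 3.07 against 2.66, 2.59 and 2.60 in GM10855 and 3.07, 2.77 and 2.89 against 2.64, 2.63 and 2.56 in GM10861 (limma, -0.34, adjusted p = 0.0403), all below the lower quartile of every array, which was 3.97 at the lowest. IL10RA, the ligand-binding chain of the interleukin-10 receptor, fell by -0.32 (limma, adjusted p = 0.0277), with the second chain IL10RB at 0.032. The IL21 call failed for 10 and the IL10RA call for 9 of the 12 arrays dropped (largest adjusted p = 0.155 and 0.111).

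The remaining named falls were TOX, a nuclear factor of lymphocytes (-0.39 ± 0.077), FRMD6, a FERM domain protein (-0.34 ± 0.075), the myosin MYO5C (-0.32 ± 0.064), CCDC88A, which binds actin and G proteins (-0.29 ± 0.061), and the tRNA-modifying gene DUS4L (-0.26 ± 0.061). Their limma adjusted p-values were 0.0112, 0.0258, 0.0112, 0.0201 and 0.0492. With 1 array dropped, the calls of FRMD6, CCDC88A and DUS4L failed 7, 8 and 11 times in 12 (largest adjusted p = 0.105, 0.0794 and 0.169), and those of TOX and MYO5C never. MYO5C did lose its call in a fit of only the groups compared (limma, adjusted p = 0.0755). Both TOX and MYO5C were dim, with mean signals of 4.21 and 4.01, under the lower quartile over the probe sets tested (4.67). No named fall passed in either line taken alone, where the changes of these 5 ran from -0.44 to -0.24. Of the 13 lower calls, 3 are not named here, by the rule for named genes or because a common deletion of the whole gene is known.

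**Figure D2:**
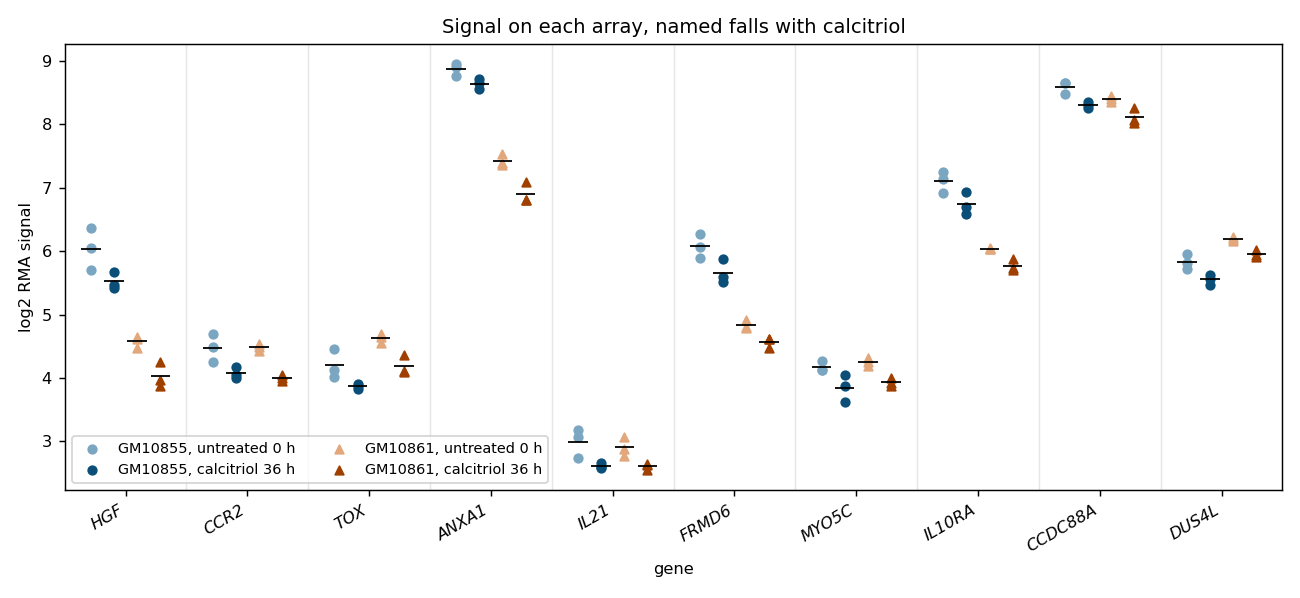
Log2 RMA signal on each of the 12 arrays for the 10 named falls, in GM10855 (circles) and GM10861 (triangles), untreated at 0 h (light) and after 36 h with calcitriol (dark); black bars are group means of 3 arrays. The shifts are small beside the differences between the lines in HGF, ANXA1 and FRMD6, and the mean change runs from -0.53 for HGF to -0.26 for DUS4L.

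Of all genes measured 0.653% were called higher and 0.0707% lower, so a short list with no called member lies near the share over all genes. Of 28 G1/S and DNA replication genes and 30 G2/M and mitosis genes none was called (0 in limma), with medians of -0.022 and -0.058. The mitotic genes were below 0 in 25 of 30, and over all genes 9331 of 18389 were below 0. The mitotic median was 0.016 in GM10855 and -0.14 in GM10861. It was -0.030 in estrogen against untreated, -0.027 in calcitriol added to estrogen and -0.028 in calcitriol against estrogen. CDK1 gave -0.14, AURKA -0.14, MKI67 -0.036, and the cyclin gene CCNE1 0.013. Of 18 apoptosis regulators none was called either, with BCL2 at 0.11, BCL2L1 at 0.23 and CFLAR at 0.23 (limma, adjusted p = 0.084).

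None of 39 interferon-stimulated genes was called, and 28 of them were below 0, with PARP9 the lowest at -0.26 (limma, adjusted p = 0.112). Their median was -0.036, and -0.029 in estrogen against untreated. At matched time it was -0.033 in calcitriol added to estrogen and -0.0072 in calcitriol against estrogen. The stress lists leaned above 0 without any call: 26 of 30 hypoxia and glycolysis genes, 18 of 20 genes of the unfolded protein and amino acid response, and 14 of 15 NRF2 targets lay above 0, with medians of 0.063, 0.059 and 0.091. Over all genes 9058 of 18389 lay above 0. By line, the stress list medians were 0.10, 0.14 and 0.15 in GM10855 and 0.048, -0.0067 and 0.015 in GM10861. In calcitriol added to estrogen, where both sides were at 36 h, the medians of the line averages were -0.013, 0.034 and -0.013. In calcitriol against estrogen, also at 36 h on both sides, they were 0.028, 0.036 and 0.092, so the 2 contrasts at matched time did not give the NRF2 list the same median. Ribosomal protein, oxidative phosphorylation, heat shock, immediate early and sterol synthesis genes had 0 called members in limma too, with medians from -0.010 to 0.034. The members of a list are genes of the same arrays and not independent of each other, and no list was tested as a set.

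**Figure D3:**
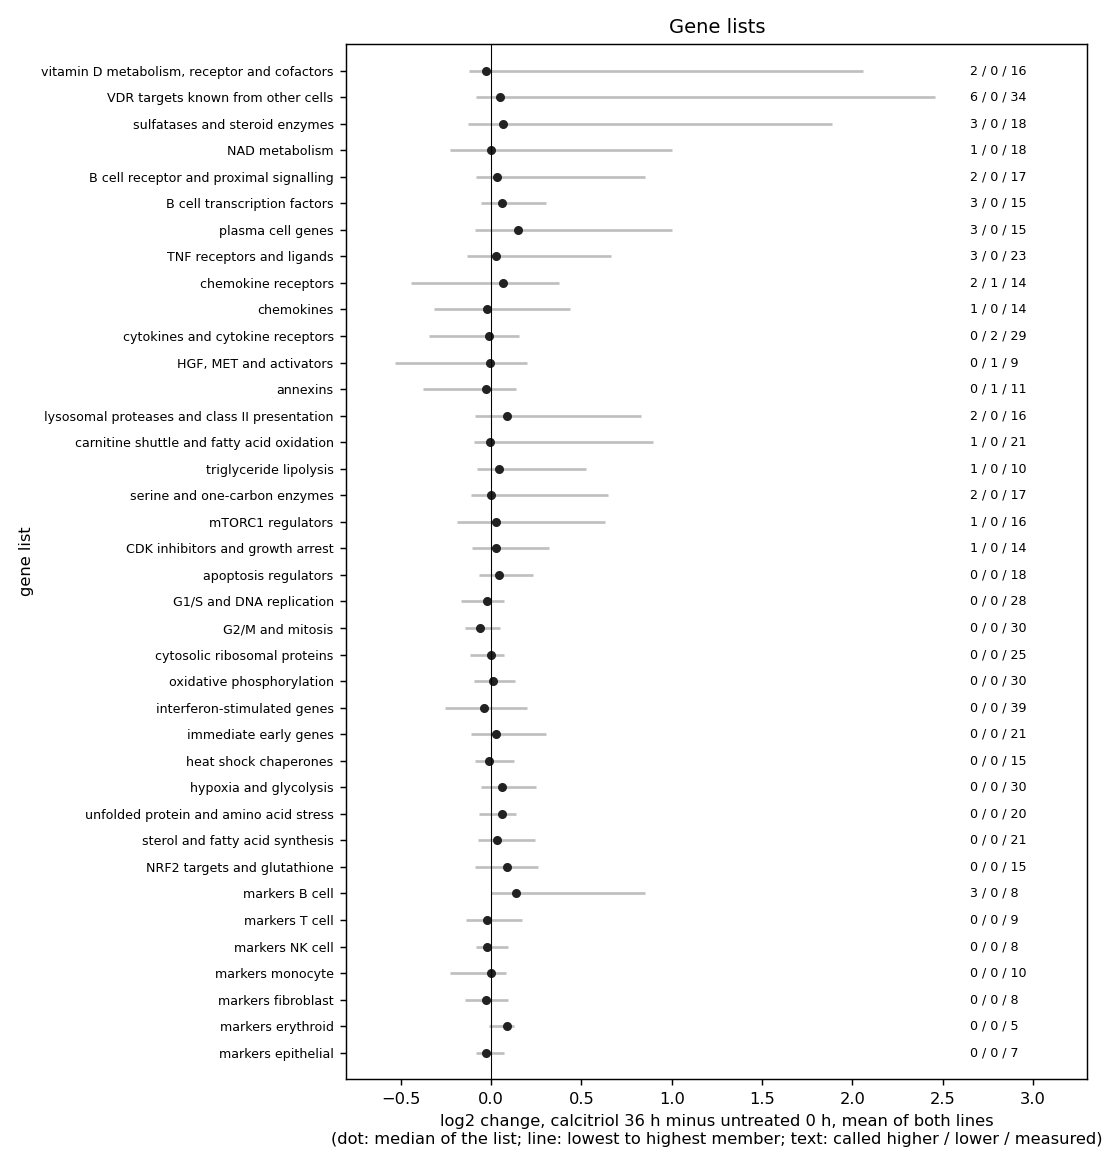
Change in calcitriol against untreated (log2, mean of both lines) for 38 gene lists; dots are list medians, lines run from the lowest to the highest member, and the text at the right counts members called higher, called lower and measured. List medians run up to 0.15, for plasma cell genes, and the long lines to the right end at CAMP, CYP24A1, STS and CD38.

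The lines were next compared. Taken alone, GM10855 gave 108 calls (0.509% of probe sets) and GM10861 22 (0.104%), the latter with 21 higher (0.099%) and 1 lower (0.00471%), and 18 of the 144 average calls were called in both. Without untreated array 2 of GM10855 the count in that line was 70. The higher calls had a median change of 0.47 in GM10855 and 0.25 in GM10861, and 112 of 131 were larger in GM10855. Over all probe sets tested the medians were 0.013 and -0.013, and the median of GM10861 minus GM10855 was -0.030. Genes with the larger change in GM10861 included CD38, LGMN, SERINC2 (0.85 against 0.45) and SERPINB1 (0.69 against 0.31), and none of these line differences passed.

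The test of the difference itself called 2 probe sets (0.00943%), both with the larger change in GM10855, and 1 to 3 when any 1 of the 12 arrays was left out. CLMN, a calponin-type membrane protein, read 5.04, 4.75 and 5.08 untreated and 6.11, 6.13 and 6.25 with calcitriol in GM10855, and 6.22, 6.15 and 6.04 against 6.59, 6.49 and 6.47 in GM10861. It rose in GM10855 from a lower start to about the untreated level of GM10861, by 1.21 ± 0.093 against 0.38 ± 0.093 (GM10861 minus GM10855 -0.83 ± 0.13, limma adjusted p = 0.0223). SLFN11, a restriction factor that acts on stalled replication, read 5.87, 5.54 and 5.58 untreated and 6.62, 6.45 and 6.81 with calcitriol in GM10855, and 7.42, 7.33 and 7.47 against 7.26, 7.30 and 7.40 in GM10861. All treated arrays of GM10855 lay above the untreated ones, while in GM10861 the sides overlapped. SLFN11 rose by 0.96 ± 0.092 in GM10855 and changed by -0.083 ± 0.092 in GM10861 without passing, a difference of -1.04 ± 0.13 (limma, adjusted p = 0.00101). The call of the CLMN difference failed for 8 of the 12 arrays dropped (largest adjusted p = 0.137) and that of SLFN11 for 0. Neither passed in a fit of only the 4 groups compared (adjusted p = 0.104 for both).

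**Figure D4:**
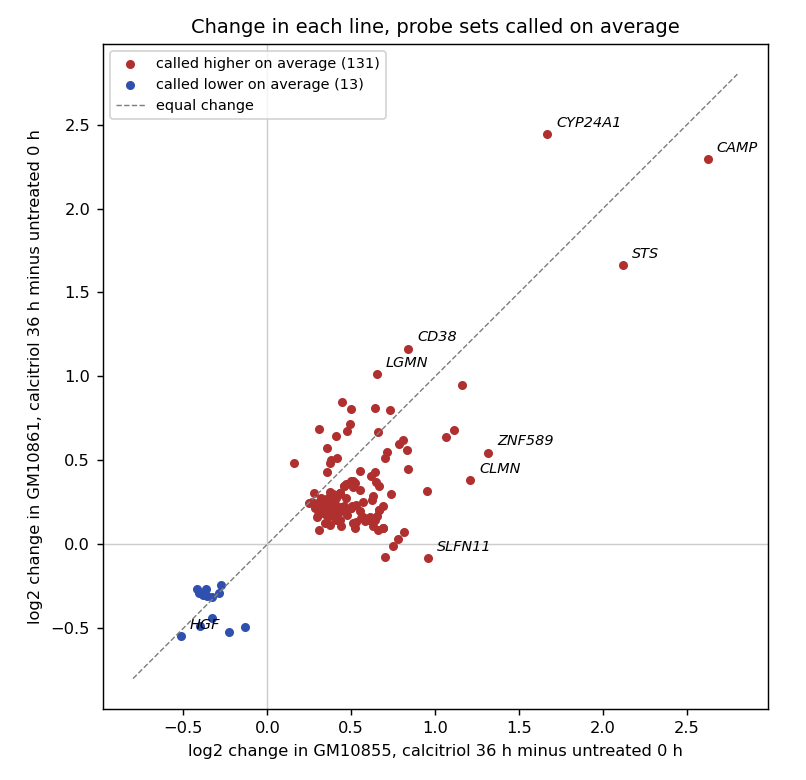
Change with calcitriol in GM10855 (x axis) and in GM10861 (y axis), log2, for the 144 probe sets called on average, 131 higher (red) and 13 lower (blue); the dashed line marks equal change. Most red points lie below the line, as 112 of 131 higher calls were larger in GM10855, and CD38 and LGMN lie above it.

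Time in culture is part of the comparison, so each gene is set beside 2 other contrasts. Estrogen against untreated, which shares the untreated arrays and spans the same 36 h, gave 0 calls in limma (1097 probe sets at an unadjusted p under 0.05, smallest adjusted p = 0.0717), and 3 calls without untreated array 3 or estrogen array 2 of GM10855. The higher calls of calcitriol had a median change of 0.037 there and the lower calls -0.079. Calcitriol against estrogen alone at 36 h, which shares the calcitriol arrays, gave 121 calls (0.57%), and the higher and lower calls had medians of 0.34 and -0.27 there.

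Calcitriol added to estrogen, which shares no array with calcitriol against untreated, gave 160 calls (0.754%), and 98 of the 144 were called in it too. The 160 became 99 when GM10855 array 1 with both agents was dropped, 102 for GM10861 array 1 with estrogen and 103 for GM10861 array 1 with both agents. CAMP had changes of 2.46 against untreated, 2.16 on top of estrogen and 0.13 with estrogen alone. For STS the same 3 were 1.89, 1.73 and 0.19, and for CYP24A1 2.06, 2.08 and 0.019. In CAMP, CYP24A1 and STS the change with calcitriol was thus large whether or not estrogen was present, and small with estrogen alone. HGF gave -0.53, -0.59 and -0.079, CCR2 -0.44, -0.55 and 0.12, and ANXA1 -0.38, -0.51 and -0.060. The test of the difference between the 2 calcitriol changes called 0 probe sets in limma (935 at an unadjusted p under 0.05, smallest adjusted p = 0.671), and 13 of the 144 had an unadjusted p under 0.05.

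The 46 calls not repeated on top of estrogen were 36 higher and 10 lower. IL21 gave -0.34 against untreated, -0.0096 on top of estrogen and -0.28 with estrogen alone, and MYO5C gave -0.32, -0.11 and -0.20. The first and the last of these values share the untreated arrays, so they are not independent. Among higher calls, chosen here after their values were seen, the kinase-like gene ADCK2 gave 0.26, 0.032 and 0.22, the decoy receptor IL1R2 0.36, 0.17 and 0.23, the adhesion receptor ADGRE5 0.31, 0.064 and 0.13, and JPH3 0.25, -0.023 and 0.052. With 1 array dropped at a time, the calls of JPH3, ADCK2 and ADGRE5 failed 12, 6 and 5 times in 12 (limma, largest adjusted p = 0.157, 0.0598 and 0.0631). GALNT5, SLC37A2, CDCA7L, GADD45A, IKZF1 and LTA were not called on top of estrogen either, yet their changes there, from 0.23 to 0.39, had the same sign, and none differed from calcitriol against untreated past the threshold.

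**Figure D5:**
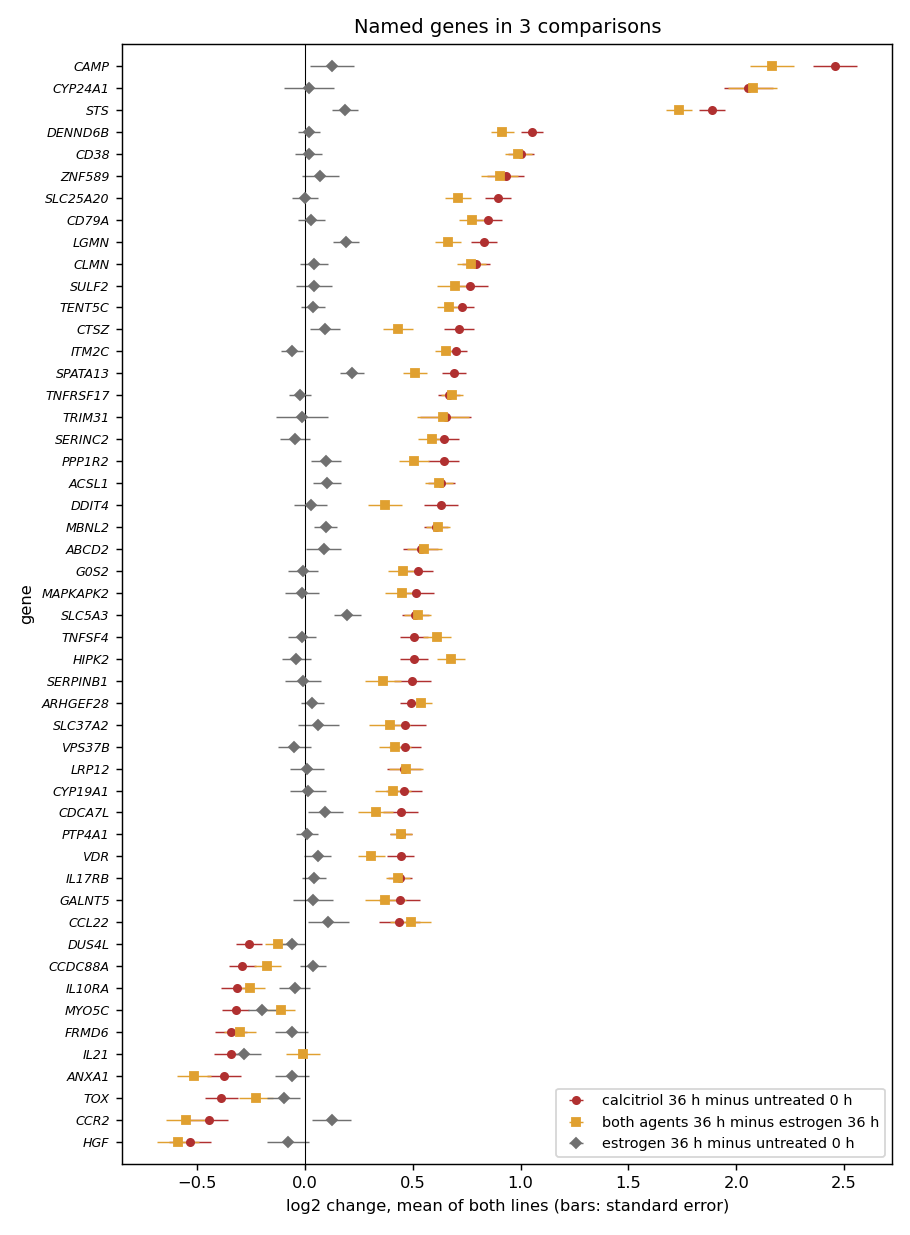
Log2 change, averaged over both lines, of the 40 largest rises and the 10 named falls in calcitriol against untreated (red circles), both agents against estrogen (orange squares) and estrogen against untreated (grey diamonds); bars are limma standard errors. Grey diamonds lie near 0, between -0.28 for IL21 and 0.22 for SPATA13. Red and orange points lie together for most genes. They part for genes that include IL21, CAMP, CTSZ (0.71 red, 0.43 orange) and DDIT4 (0.63 red, 0.37 orange), with no such difference past the threshold.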

How the data were processed

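The authors deposited log2 signals per probe set. The submitters' processing notes name RMA and Affymetrix Expression Console, version 1.0.1. RMA equalises the arrays' distributions, which takes out any shift common to most genes, and it compresses changes of dim probe sets. The genome build is not given in the sources used here. Detection p-values were not among the values used, so dim probe sets stayed in. Precision is limited by the number of arrays.

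Of 33297 probe sets, the 21214 with at least 1 symbol were tested with limma 3.58.1 in R 4.3.3, without further normalisation. The model held 8 group means over 24 arrays (16 residual and 6.73 prior degrees of freedom), and two-sided p-values were adjusted contrast by contrast (Benjamini-Hochberg). Errors of changes are standard errors. The script was tested on simulated data. Array numbers follow the sample list and pair nothing. Lists used 1 probe set per gene, that of the highest mean, over 18389 genes.

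Named genes were the 40 largest rises and the falls among calls that went the same way in both lines, all called list members, the called line differences, and the first 2 measured genes of each list described, with further members to illustrate it. Y-linked genes, receptor segments, pseudogenes and predicted loci were not named. The genes, lists and tests were chosen with earlier results of these data known. Promoters are from RefSeq (GRCh38.p14). The alternatives were a filter on mean signal, all probe sets, median centring, cyclic loess, trend and robust eBayes, array weights, a fit of only the groups compared, a minimum change of 0.5 and leaving out each array.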

Additional observations from a re-analysis of the deposited data

Results flagged for a closer look

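In 2 genes the change with calcitriol differed between the lines by a test of the difference itself. For CLMN the change in GM10861 minus that in GM10855 was -0.83 ± 0.13 (limma, adjusted p = 0.0223), and for SLFN11 it was -1.04 ± 0.13 (adjusted p = 0.00101). The same difference was then computed for calcitriol added to estrogen, a test chosen after seeing the data, which called 1 probe set (0.00471%). CLMN changed there by 1.27 ± 0.093 in GM10855 and by 0.27 ± 0.093 in GM10861, and the difference of -0.998 ± 0.13 passed (limma, adjusted p = 0.00239). SLFN11 changed by 0.85 ± 0.092 in GM10855 and by 0.20 ± 0.092 in GM10861, and the difference of -0.65 ± 0.13 did not pass (limma, adjusted p = 0.14). Each line comes from 1 donor, so line and donor cannot be told apart.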

How the results depend on the processing

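Of the 60 called genes that were named by the rule, 43 kept their call in every alternative that tested them, the minimum change aside, 16 lost it in at least 1 fit that left out an array and 14 in another alternative, and none reversed (0). Of the 18 called genes named outside the rule, as neighbours or after their values were seen, 9 kept their call in the same alternatives, 8 lost it in at least 1 fit that left out an array, 8 in another alternative, and 0 reversed. Leaving out 1 array gave 96 to 166 calls in calcitriol against untreated, 70 to 151 in GM10855, 18 to 21 in GM10861, 1 to 3 in the line difference, 0 to 3 in estrogen against untreated, 99 to 139 in calcitriol added to estrogen, 89 to 115 in calcitriol against estrogen and 0 in the difference between the 2 calcitriol changes. Keeping only probe sets with a mean signal of at least 5 gave 4 line differences and 3 calls in estrogen against untreated, and adding probe sets with no symbol gave 1 line difference. Trend and robust estimation gave 37 calls in GM10861, 7 line differences and 6 calls in estrogen against untreated, and array weights gave 53 calls in GM10861 and 10 line differences. A fit of only the groups compared gave 39 calls in GM10855, 0 line differences in limma (CLMN and SLFN11 each at adjusted p = 0.104) and 99 calls in calcitriol added to estrogen. In calcitriol against untreated that fit gave 101 calls, 94 of them among the 144. The count there was 124 with all probe sets, 185 with trend and robust estimation and 192 with array weights. A minimum change of 0.5 left 31 calls in calcitriol against untreated, 65 in GM10855, 36 in calcitriol added to estrogen and 34 in calcitriol against estrogen. The cause of these shifts was not tested beyond the fewer samples or probe sets that a setting itself keeps. No paired analysis was possible because the labels give the arrays no replicate numbers. Among the named falls, HGF, TOX and MYO5C kept their calls whichever of the 12 arrays was left out and the other 7 did not. The MYO5C call was lost in a fit of only the groups compared. Untreated signals as dim as those of IL21 and CYP24A1 cannot be told from background here.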

Other observations

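Some genes were called in 1 line alone and not on average, and are named here after their values were seen. There were 19 such genes in GM10855 and 1 in GM10861. MS4A1, which encodes the B cell surface protein targeted by rituximab, rose by 0.37 in GM10855 and gave -0.051 in GM10861 (limma, adjusted p = 0.0117 and 0.964). CTSB, cathepsin B, rose by 0.46 against 0.029, GLB1, the lysosomal beta-galactosidase, by 0.43 against 0.072, and HIF1A, the oxygen-sensitive transcription factor, by 0.37 against 0.071. GCLC, which starts glutathione synthesis, rose by 0.54 in GM10855 and gave -0.019 in GM10861, and ELOVL6, a fatty acid elongase, by 0.54 against -0.053. The chemokine gene CCL1 fell by -0.73 in GM10855 and gave 0.094 in GM10861, and VIPR2, a neuropeptide receptor, fell by -0.51 against 0.083. CD200R1, the receptor of the CD200 ligand, was the 1 gene called in GM10861 alone, with -0.46 against -0.016 in GM10855. None of these line differences passed (limma, adjusted p from 0.326 to 0.747 over the 20 genes), so a response of 1 line only is not shown.

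Further genes called higher on average lie outside the rule for named genes and were also picked after their values were seen. GLUL, glutamine synthetase, rose in 2 probe sets by 0.36 and 0.32. KCNN4, a calcium-activated potassium channel, rose by 0.39, AQP3, a channel for water and glycerol, by 0.32, and NAPSA, an aspartic protease, by 0.42. GRN, the progranulin gene, rose by 0.32, and the complement inhibitor CD59 by 0.25. BTLA, CD84, CD69 and FCMR, all lymphocyte surface receptors, rose by 0.34, 0.33, 0.32 and 0.32. When each of the 12 arrays was dropped in turn, the call of CD84 failed 10 times, that of CD59 6 times and that of CD69 2 times (limma, largest adjusted p = 0.196, 0.0832 and 0.0547). AQP3 was the larger in GM10861 (0.48 against 0.16), and the apolipoprotein gene APOL3 gave 0.75 in GM10855 and -0.013 in GM10861. Neither line difference passed, so a response of 1 line only is not shown for these genes.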
